A study of Mus musculus with 12 samples.

Results

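The 10 genes described here are transcription factors and markers of the luminal progenitor and alveolar cells of the mammary gland, taken by name from the deposited expression table. They are Elf5, Ehf, Elf3, Tfcp2l1, Sox9, Sox10, Kit, Cd14, Aldh1a3 and Cited4. All 10 were found among the 23406 genes of the table, and all 10 passed the filter of a mean of at least 0.5 CPM that left 13961 genes for testing. They would also have passed it on the libraries outside 12-month WT alone, where the lowest mean was 0.653 CPM for Elf3.

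Mammospheres, the floating spheres grown from mammary cells without attachment, were harvested for RNA at passage 2. The 12 libraries fell into 4 groups of 3, all from C57BL/6J mice. The knockout (KO) groups came from mice labelled Shc1p66KO, without the p66Shc isoform of Shc1, at 12 or 2 months of age. The wild-type (WT) groups came from mice of the same 2 ages. The design text speaks of 3 mice of each age, but no label ties a library to a mouse, so p-values measure the spread between these libraries, which may be technical. The title asks about a p53, p66Shc and mInsc axis in the division and growth of aged mammary stem cells.

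Depth ranged over the libraries between 31845169 and 109079737 reads counted to genes. Shc1 had 170 ± 7.60 CPM in 12-month KO and 208 ± 0.329 in 2-month KO, against 211 ± 8.44 in 12-month WT and 296 ± 25.3 in 2-month WT (SD, n = 3 each). Reads of all Shc1 isoforms are summed, so this checks the labels in part. Libraries of 12-month WT (203 to 220 CPM) overlapped those of 2-month KO (208 to 209), so the genotypes were apart only within an age. Markers of several cell types were present. The fibroblast genes Dcn and Col3a1 averaged at least 1679 and 2481 CPM in each group, while the 9 luminal markers summed to 452 to 473 CPM in 12-month KO, 457 to 533 in 2-month KO, 3741 to 3899 in 12-month WT and 321 to 402 in 2-month WT. In bulk RNA, fewer cells of a type and less RNA per cell cannot be told apart.

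The luminal layer of the mammary epithelium holds hormone-sensing cells and hormone receptor-negative progenitors that give rise to milk-secreting alveolar cells. Elf5, an ETS-family factor induced by prolactin and RANK signalling, drives the alveolar fate. Ehf and Elf3 belong to the same epithelium-specific branch of the ETS family. Luminal progenitors are commonly recognised by the receptor Kit, the endotoxin co-receptor Cd14 and the retinaldehyde dehydrogenase Aldh1a3.

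With age in WT mammospheres all 10 genes rose, by a median log2 fold change of 3.35 against -0.08 over all genes tested. Called rises made up 22.3% of all genes in that comparison (adjusted p under 0.05, limma, Benjamini-Hochberg over all genes). With age in KO mammospheres 8 of the 10 rose, by a median over all 10 of 1.19 against -0.02 over all genes, where 32.9% of genes were called higher. Sox10 and Aldh1a3 were the exceptions in KO. In either direction, 9358 of the 13961 genes were called with age in KO, 4589 of them higher. In WT 8091 were called, 3120 of them higher. Counts of rises and falls in the lists below stand beside these. The age change differed between genotypes for all 10 genes by the interaction test, which called 57.7% of all genes. It was smaller in KO for 8 genes, where 26.2% of all genes had a called interaction below 0. On the log2 scale of this test it was larger in KO for Kit and Sox9, where 31.4% had one above 0.

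Between genotypes at 12 months, 9 of the 10 were lower in KO and Sox9 was higher, with a median of -2.42 against -0.07 over all genes. Of all genes 38.9% were called lower in KO and 31.3% higher. At 2 months 3 of the 10 were called lower in KO, where 14.2% of all genes were. They were Kit, Elf5 and Sox9, and only Kit stayed called when scaling factors were recomputed over all 12 libraries by the trimmed mean of M-values (TMM). These comparisons share libraries, so their results are not independent of each other.

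**Figure D1:**
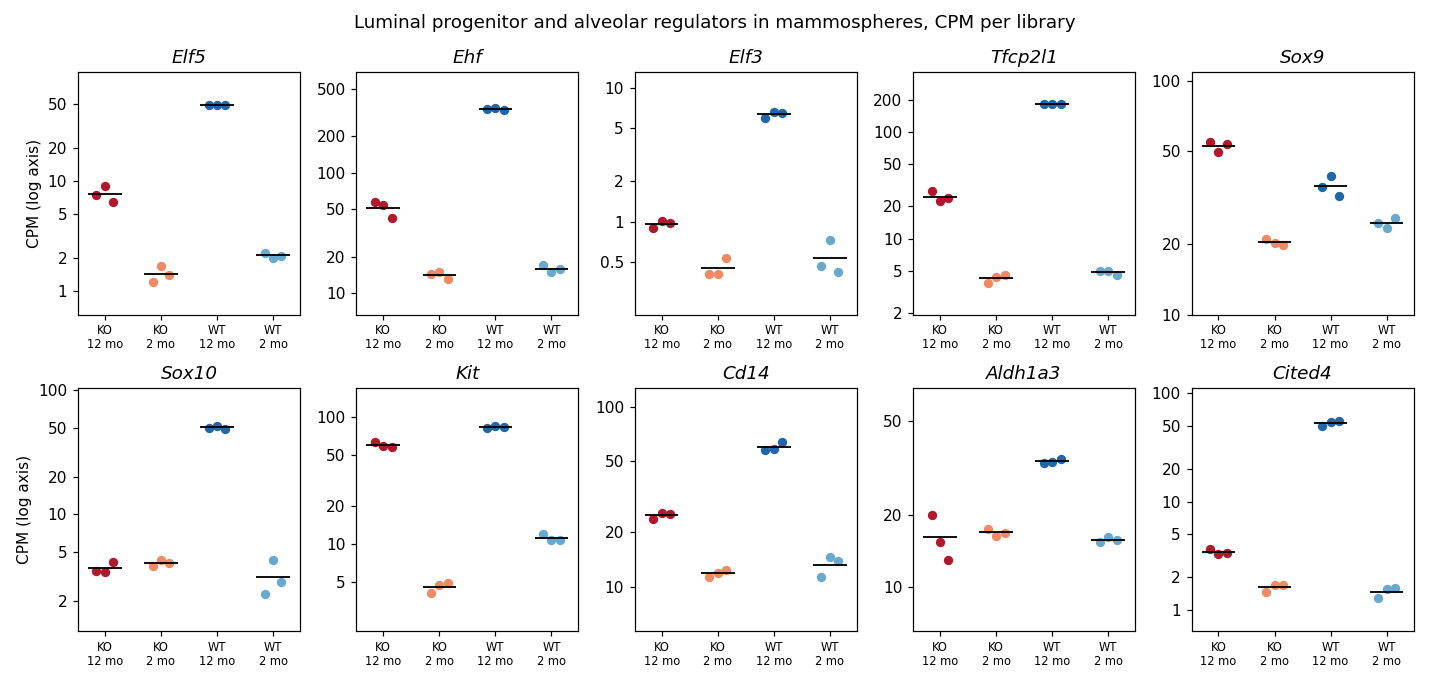
Deposited CPM of each gene in each library on log axes, with points for the 3 libraries of a group and a line at their mean. The 12-month WT group is highest in 9 panels, with 12-month KO nearest to it in the Kit panel, and in the Sox9 panel 12-month KO stands highest at 49.8 to 54.8 CPM.

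Elf5 lies on chromosome 2 from 103412098 to 103450988 on the plus strand (mm10, start counted from 1). It had 7.39, 9.10 and 6.52 CPM in 12-month KO, 1.22, 1.71 and 1.39 in 2-month KO, 48.7, 49.2 and 49.1 in 12-month WT and 2.23, 1.99 and 2.103 in 2-month WT. Every 12-month library stood above every 2-month library, and 12-month KO reached 15.7% of the 12-month WT mean. The rise with age was 2.07 ± 0.12 log2 in KO (adjusted p = 5.95e-09, limma) and 4.25 ± 0.12 in WT (adjusted p = 6.87e-12), with an interaction of -2.18 ± 0.17 (adjusted p = 1.54e-07). The KO libraries at 2 months lay under those of WT without overlap (-0.44, adjusted p = 0.0237), but 6 of 20 alternatives lost this call, among them edgeR (adjusted p = 0.118) and TMM over all 12 libraries (adjusted p = 0.0718).

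Ehf lies on the same chromosome from 103263433 to 103303196 on the minus strand. It had 57.0, 53.6 and 42.2 CPM in 12-month KO, 14.4, 14.96 and 13.1 in 2-month KO, 341, 345 and 334 in 12-month WT and 17, 14.8 and 15.9 in 2-month WT. Its age change was 1.80 ± 0.10 in KO and 4.38 ± 0.10 in WT (adjusted p = 3.16e-09 and 1.63e-12, limma). Genotypes overlapped at 2 months (-0.16, adjusted p = 0.3).

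Elf3, the ETS factor named for epithelia in many tissues, lies on chromosome 1 (135253574 to 135258472, minus strand) and was the least abundant member. It had 0.892, 1.02 and 0.987 CPM in 12-month KO, 0.406, 0.410 and 0.540 in 2-month KO, 5.96, 6.54 and 6.47 in 12-month WT and 0.466, 0.738 and 0.421 in 2-month WT. The fewest reads in a library were 15. On the log2(CPM + 0.5) scale Elf3 rose by 0.62 ± 0.12 in KO (adjusted p = 0.00059, limma) and 2.72 ± 0.12 in WT (adjusted p = 5.69e-10). These sizes are understated for such a low gene, since the means differed by 2.14-fold in KO and 11.7-fold in WT. In GENCODE vM21 an antisense gene shares 7.31% of the Elf3 exon bases, and the strand setting of the counting is not given in the sources used here.

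Tfcp2l1, a grainyhead-family transcription factor of epithelial and pluripotent cells, lies on chromosome 1 from 118627945 to 118685168 on the plus strand. It had 27.9, 22.4 and 23.9 CPM in 12-month KO, 3.84, 4.34 and 4.53 in 2-month KO, 184 in each 12-month WT library and 5.003, 5.005 and 4.52 in 2-month WT. The 12-month WT mean was 37.9 times that of 2-month WT, and the 12-month KO mean was 5.84 times that of 2-month KO. The interaction was -2.70 ± 0.12 (adjusted p = 1.4e-09, limma).

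Cited4, a cofactor that binds the acetyltransferases CBP and p300, lies on chromosome 4 (120666563 to 120667820, plus strand). It had 3.67, 3.31 and 3.36 CPM in 12-month KO, 1.46, 1.71 and 1.70 in 2-month KO, 49.9, 54.3 and 56.0 in 12-month WT and 1.28, 1.56 and 1.58 in 2-month WT. In 12-month KO it stood at 6.45% of the 12-month WT mean, the lowest share among the 10 genes. It rose by 0.90 ± 0.10 log2 in KO and 4.78 ± 0.10 in WT (adjusted p = 2.46e-06 and 1.15e-12, limma).

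RefSeq promoter windows (GRCm38.p6, 250 bases before to 50 after the gene start) were used for 5 of the 10 genes. They are shown for the genes with the largest rises in WT and for Kit, whose pattern differed, with capitals marking matches to motifs. Both strands were searched for the ETS motif AGGAAG, its variant CGGAAG, the Sox motif AACAAT, the Stat motif TTCNNNGAA and the TATA box TATAAA.
Tfcp2l1, chr1:118627695-118627994, plus strand: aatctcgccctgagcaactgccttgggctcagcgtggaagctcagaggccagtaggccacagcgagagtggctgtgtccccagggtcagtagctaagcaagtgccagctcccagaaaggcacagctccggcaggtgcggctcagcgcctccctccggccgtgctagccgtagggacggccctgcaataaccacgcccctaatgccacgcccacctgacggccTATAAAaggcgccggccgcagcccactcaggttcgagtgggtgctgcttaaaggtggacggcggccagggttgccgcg
Cited4, chr4:120666313-120666612, plus strand: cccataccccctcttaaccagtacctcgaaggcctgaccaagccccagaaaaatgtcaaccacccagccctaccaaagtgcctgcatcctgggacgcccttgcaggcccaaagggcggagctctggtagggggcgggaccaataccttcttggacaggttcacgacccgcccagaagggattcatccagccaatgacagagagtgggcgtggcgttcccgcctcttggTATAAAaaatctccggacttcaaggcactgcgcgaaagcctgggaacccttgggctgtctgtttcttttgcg
Kit, chr5:75574737-75575036, plus strand: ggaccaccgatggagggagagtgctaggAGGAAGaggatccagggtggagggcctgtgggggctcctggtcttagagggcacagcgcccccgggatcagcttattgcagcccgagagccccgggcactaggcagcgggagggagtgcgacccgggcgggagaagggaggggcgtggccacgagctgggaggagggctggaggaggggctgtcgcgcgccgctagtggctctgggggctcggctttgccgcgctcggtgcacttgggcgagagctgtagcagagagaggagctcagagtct
TATAAA began 28 bases before the start in Tfcp2l1 and 22 before it in Cited4, and 13.6% of all 32544 windows hold it on either strand. AGGAAG, which 35.1% of windows hold, began 222 bases before the start in Kit. None of the 5 motifs was in the windows of Elf5 and Elf3.

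Sox10, a SoxE factor found in neural crest derivatives and in mammary progenitor and basal cells, lies on chromosome 15 (79154913 to 79164490, minus strand). It had 3.49, 3.45 and 4.13 CPM in 12-month KO, 3.84, 4.28 and 4.06 in 2-month KO, 49.7, 52.0 and 49.1 in 12-month WT and 2.31, 4.29 and 2.88 in 2-month WT. The ages overlapped in KO (-0.12 ± 0.15, adjusted p = 0.481, limma) and were far apart in WT (3.83 ± 0.15, adjusted p = 1.33e-10). Its interaction was -3.95 ± 0.21 (adjusted p = 6.37e-09). Among markers of other Sox10-positive cells, the neural crest factor Foxd3 averaged at most 0.0977 CPM in any group and the pigment genes Dct and Tyrp1 at most 0.0203, while the melanocyte genes Mitf and Mlana averaged at least 76.5 and 2.90 CPM in each group. The Schwann cell list summed to 25.5 to 26.2 CPM in 12-month KO, 16.5 to 17.2 in 2-month KO, 110 to 120 in 12-month WT and 19.9 to 24.3 in 2-month WT. Mbp and Erbb3 made up most of that sum. Of the 5 genes of this list that were tested, 2 rose and 1 fell with age in KO, with a median of 0.21. In WT also 2 rose and 1 fell, with a median of 0.27.

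Aldh1a3 lies on chromosome 7 (66390893 to 66427477, minus strand) and encodes an enzyme that makes retinoic acid. It had 20.1, 15.4 and 13 CPM in 12-month KO, 17.5, 16.4 and 16.8 in 2-month KO, 33.3, 33.7 and 34.4 in 12-month WT and 15.5, 16.2 and 15.7 in 2-month WT. The WT ages were apart by 1.07 ± 0.11 (adjusted p = 2.46e-06, limma), while the KO ages overlapped (-0.09 ± 0.11, adjusted p = 0.509). The 3 libraries of 12-month KO spread widely. Without replicate 1 the KO change was -0.25 (adjusted p = 0.0156), and without replicate 3 it was 0.05 (adjusted p = 0.645).

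Cd14 lies on chromosome 18 (36725067 to 36726654, minus strand). It had 23.7, 25.8 and 25.4 CPM in 12-month KO, 11.4, 11.9 and 12.3 in 2-month KO, 57.6, 58.1 and 63.3 in 12-month WT and 11.3, 14.5 and 13.9 in 2-month WT. It rose with age by 1.04 ± 0.09 in KO (adjusted p = 2.18e-07, limma) and 2.14 ± 0.09 in WT (adjusted p = 1.71e-10). Cd14 is also a monocyte and macrophage gene. Of 7 tested macrophage markers 0 rose and 7 fell with age in KO. In WT 0 rose and 3 fell, or 1 with TMM over all 12 libraries. Their summed level was 267 to 469 CPM in 12-month KO, 891 to 984 in 2-month KO, 790 to 866 in 12-month WT and 1051 to 1318 in 2-month WT. Cd14 moved against this sum with age in both genotypes.

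Kit encodes the receptor of stem cell factor and lies on chromosome 5 (75574987 to 75656721, plus strand). It had 63.7, 59.5 and 57.7 CPM in 12-month KO, 4.11, 4.73 and 4.96 in 2-month KO, 82.3, 84.8 and 83.8 in 12-month WT and 11.9, 10.6 and 10.7 in 2-month WT. The 4 groups did not overlap, and 12-month KO reached 72.1% of the 12-month WT mean. The rise with age was 3.58 ± 0.07 in KO and 2.86 ± 0.07 in WT (adjusted p = 1.02e-12 and 4.35e-12, limma), and the interaction was 0.72 ± 0.11 (adjusted p = 6.94e-05). In KO libraries Kit stood below WT at 12 months by a log2 value of -0.47 (adjusted p = 8.95e-05). The gap was wider among 2-month libraries, at -1.19 ± 0.07 (adjusted p = 5.75e-07). The 2-month call held in all 20 alternatives, with values from -1.25 to -1.10.

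Kit is also a mast cell gene, and mast cell markers moved between the groups. Their sum over 10 genes was 192 to 226 CPM in 12-month KO, 44.5 to 49.5 in 2-month KO, 56.6 to 68.0 in 12-month WT and 145 to 165 in 2-month WT, and none was at 0 in any group mean. With age in KO 8 of the 10 rose and 1 fell, with a median of 2.098, and Kit rose beside them. With age in WT 0 rose and 9 fell, with a median of -0.91, and Kit rose against them. At 2 months 8 of the 10 were lower in KO, as Kit was. At 12 months 8 were higher and 1 lower in KO, where Kit was lower. The mast cell protease gene Cpa3 had 76.5 CPM in 12-month KO and 10.97 in 2-month KO, against 11.5 in 12-month WT and 47.7 in 2-month WT. Kit is a melanocyte gene as well. The 6 melanocyte markers summed to 191 to 207 CPM in 12-month KO, 126 to 132 in 2-month KO, 72.8 to 86.4 in 12-month WT and 129 to 134 in 2-month WT, most of it from Mitf, which mast cells also express. Of the 3 that were tested, 2 rose with age in KO and 0 fell, and in WT 1 rose and 1 fell. The pigment genes Tyr, Tyrp1 and Dct averaged at most 0.346 CPM in any group. Skeletal muscle markers also differed between groups, with 804 to 1511 CPM summed over 6 genes in 12-month KO, 245 to 297 in 2-month KO, 172 to 195 in 12-month WT and 868 to 1020 in 2-month WT. The part of RNA from these other cells in the KO rise and the 2-month difference of Kit was not tested.

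**Figure D2:**
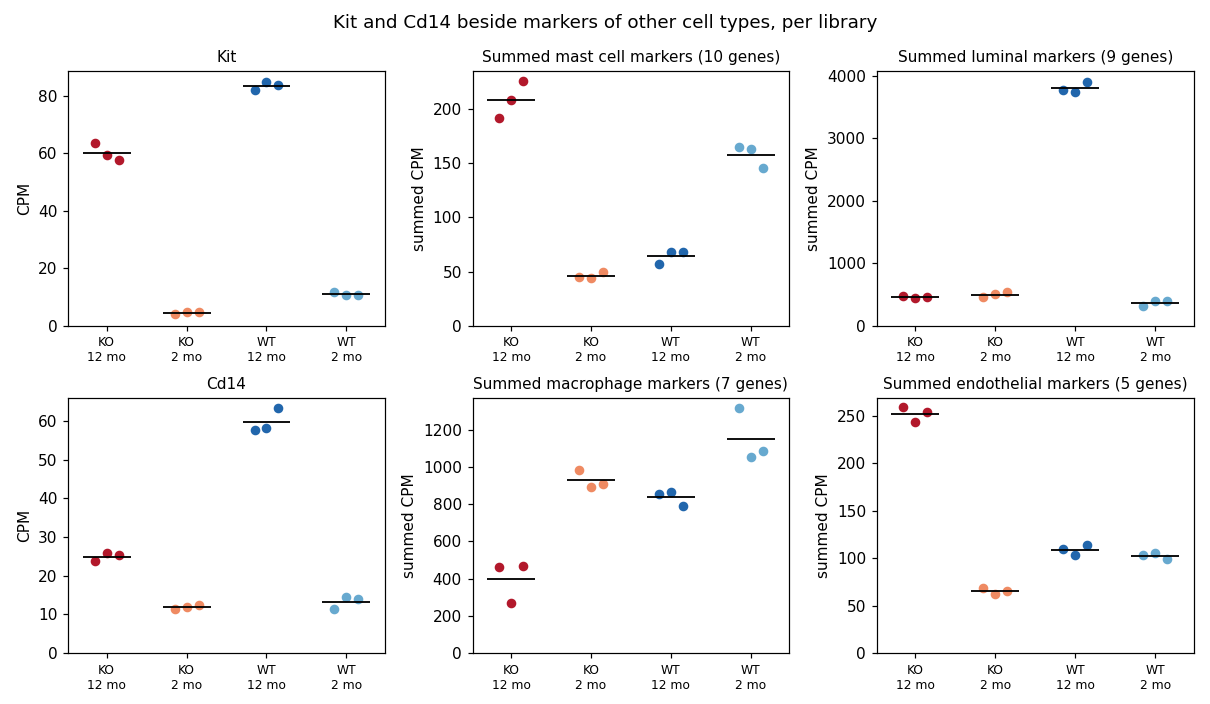
CPM of Kit and Cd14 and summed CPM of 4 marker lists in each library, on linear axes from 0, with lines at the group means. Mast cell and endothelial markers are highest in 12-month KO, luminal markers in 12-month WT at 3741 to 3899 CPM, and macrophage markers lowest in 12-month KO.

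Endothelial markers also stood highest in 12-month KO, at 243 to 259 CPM summed over 5 genes, against 62.6 to 68.8 in 2-month KO, 103 to 114 in 12-month WT and 98.6 to 105 in 2-month WT. The ligand of Kit, Kitl, was called in neither age comparison, with 259 CPM in 12-month KO, 265 in 2-month KO, 257 in 12-month WT and 291 in 2-month WT. Of 8 genes of Kit ligand and signalling, 5 rose and 2 fell with age in KO, with the adaptor Gab2 up by 0.73 and the ubiquitin ligase Cbl up by 1.03. In WT 2 rose and 1 fell, which was Gab2 at -0.41.

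Sox9, a SoxE factor of luminal progenitors that also directs cartilage, lies on chromosome 11 (112782210 to 112787757, plus strand). It had 54.8, 49.8 and 53.8 CPM in 12-month KO, 21.0, 20.3 and 19.98 in 2-month KO, 35.3, 39.2 and 32.1 in 12-month WT and 24.8, 23.5 and 25.9 in 2-month WT. It was the one member higher in 12-month KO than in 12-month WT (0.57 ± 0.07, adjusted p = 1.52e-05, limma). With age it rose by 1.35 ± 0.07 in KO and 0.51 ± 0.07 in WT (adjusted p = 4.34e-09 and 5.19e-05), and the interaction was 0.84 ± 0.11 (adjusted p = 1.6e-05). The lower level in KO at 2 months (-0.27, adjusted p = 0.0261) was called in 13 of 20 alternatives. The cartilage list, with Col2a1 and Acan, summed to at most 1.47 CPM in any library.

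**Figure D3:**
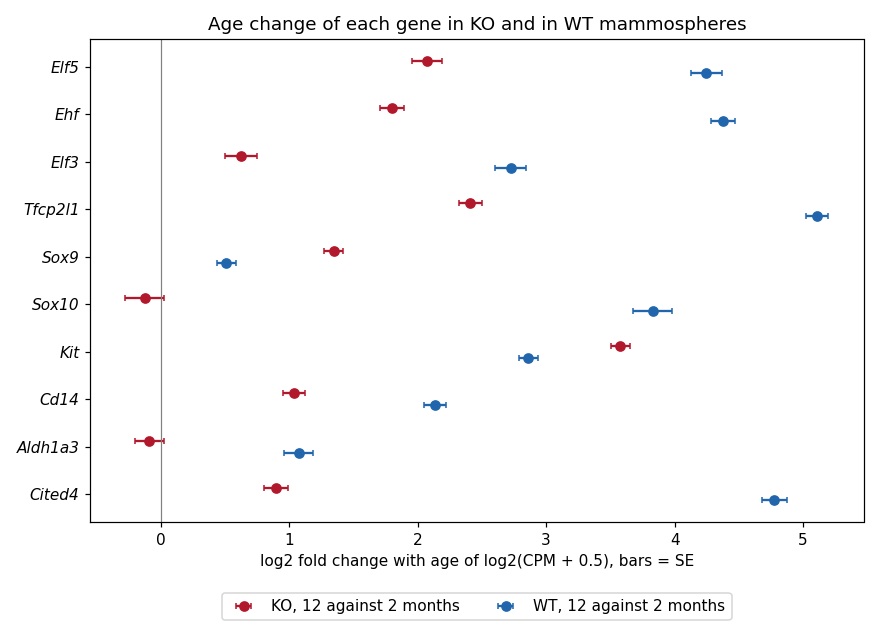
Log2 fold change from 2 to 12 months in KO and in WT mammospheres for each gene on the log2(CPM + 0.5) scale, with bars for the standard error from limma. The KO point lies left of the WT point for 8 genes and right of it for Sox9 and Kit, and the KO bars of Sox10 and Aldh1a3 reach 0.

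The changes can be set beside the luminal markers of the same libraries. The mean log2 level of the 9 luminal markers, which include Krt8, Krt18 and Epcam, was 5.09 ± 0.01 in 12-month KO and 5.15 ± 0.12 in 2-month KO, against 8.12 ± 0.02 in 12-month WT and 4.84 ± 0.22 in 2-month WT (SD, n = 3 each). All 9 rose with age in WT. In KO 1 rose and 2 fell, or 3 rose and 2 fell with DESeq2. Measured against that mean within each library, Elf5 stood at -2.07 log2 in 12-month KO and -4.20 in 2-month KO, against -2.49 in 12-month WT and -3.46 in 2-month WT. Relative to luminal markers, Elf5 was higher at 12 months by 2.13 in KO and 0.97 in WT.

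The same measure was higher at 12 months in both genotypes for Ehf (1.86 in KO and 1.10 in WT), Tfcp2l1 (2.47 and 1.83) and Cited4 (0.96 and 1.49). It was higher at 12 months in KO and lower at 12 months in WT for Cd14 (1.10 and -1.15), Kit (3.64 and -0.42) and Sox9 (1.41 and -2.77). In CPM these genes rose with age in both genotypes. The luminal mean itself rose by 3.28 log2 with age in WT and moved by -0.06 in KO. Any gene rising by less than 3.28 in WT is therefore lower there on this measure. Of all genes tested, 0.817% rose in WT by the members' median of 3.35 or more. For Elf3 the measure was higher by 0.69 in KO. No direction is given in WT, where the value was -0.56 with the pseudocount of 0.5 CPM and 0.04 with 0.1. Aldh1a3 was at -0.03 in KO and -2.21 in WT, and Sox10 at -0.06 and 0.55. At 12 months the KO value was above that of WT for 8 of the 10 genes, with Sox10 (-0.57) and Cited4 (-0.74) as the exceptions. The luminal mean itself differed by -3.03 log2 there, so any gene lower in KO by less than that stands above WT on this measure. Of all genes tested, 98.3% had a 12-month genotype difference at or above the members' median of -2.42, and so above -3.03 as well. The count of 8 of 10 is thus not above the share over all genes. The members' median itself lies low among all genes. In CPM the KO value at 12 months was above WT for Sox9 only. Basal markers rose with age for 6 of 9 genes in KO (1 fell) and 9 of 9 in WT, and hormone-sensing luminal markers for 7 of 9 in both, with 0 falling. The part of cell-type makeup in the members' changes was not tested.

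**Figure D4:**
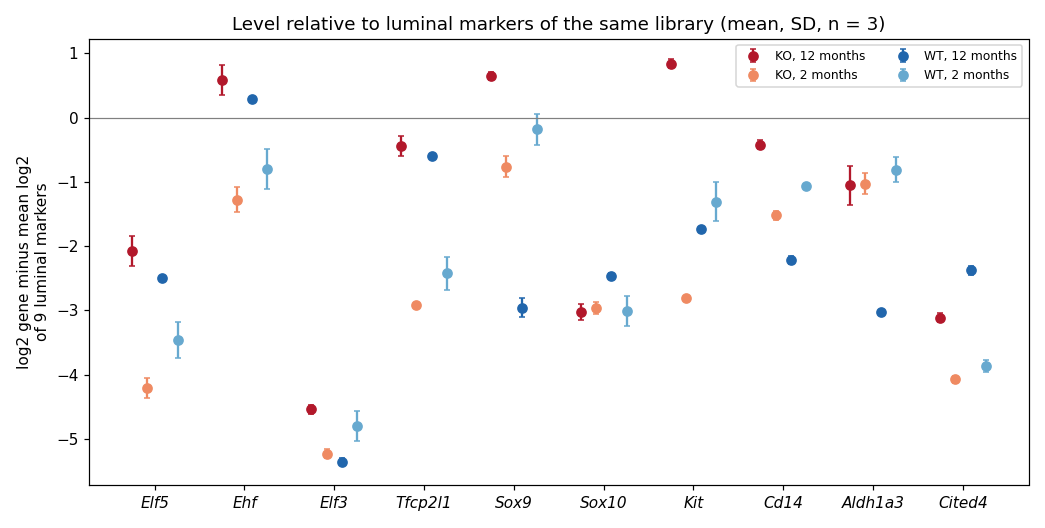
Log2(CPM + 0.5) of each gene minus the mean of the same value over 9 luminal markers in the same library, as group means with SD (n = 3). The 12-month KO mean is above the 12-month WT mean by 0.30 for Ehf and 0.16 for Tfcp2l1, while Kit is at 0.84 in 12-month KO and -1.73 in 12-month WT.

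Levels can be compared between genes only per length, here as CPM per kilobase of merged GENCODE exons. In 12-month KO the order began with Cd14 at 14.4, Sox9 at 12.8, Ehf at 9.13 and Kit at 6.77, and ended with Elf5 at 1.31, Sox10 at 1.21 and Elf3 at 0.435. In 12-month WT it began with Ehf at 60.9, Cited4 at 42.7, Cd14 at 34.5 and Tfcp2l1 at 19.5, and ended with Aldh1a3 at 7.32 and Elf3 at 2.85. Elf3 was thus the lowest of the 10 per length in both.

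Genes of prolactin, RANK and Stat5 signalling, a list with factors upstream of Elf5 and also Stat5 targets, were counted in the same way. Of 12 tested, 9 rose and 0 fell with age in KO, with a median of 0.66. In WT 8 rose and 2 fell, or 8 and 1 with TMM over all 12 libraries, with a median of 0.25. Over all genes 32.9% were called higher in KO and 22.3% in WT, with medians of -0.02 and -0.08. The prolactin receptor gene Prlr had 16.3 CPM in 12-month KO and 4.40 in 2-month KO, against 47.5 in 12-month WT and 6.21 in 2-month WT. It thus rose in both, by 1.78 in KO and 2.85 in WT, with an interaction of -1.07 (adjusted p = 0.000287, limma). The Stat5 target Socs2 rose more in KO (1.65) than in WT (0.82), with an interaction of 0.84 (adjusted p = 5.97e-06). The kinase gene Jak2 rose in KO (0.49) and fell in WT (-0.35). The RANK ligand gene Tnfsf11 rose in KO (1.40), and its value of -0.37 in WT (adjusted p = 0.0423, limma) was not called with TMM over all 12 libraries, edgeR or DESeq2.

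Among other luminal progenitor and alveolar markers 9 of 12 tested rose and 2 fell with age in KO, and 8 rose and 3 fell in WT, or 8 and 2 with TMM over all 12 libraries. The whey acidic protein relative Wfdc18 rose by 2.16 in KO and 3.84 in WT, and the lipocalin gene Lcn2 by 1.96 and 3.44. The antiprotease gene Slpi rose by 2.67 in KO and 3.52 in WT. Csn3, which encodes kappa-casein, had 0.583 CPM in 12-month KO and 33.3 in 2-month KO, against 120 in 12-month WT and 34.7 in 2-month WT. It fell by 4.98 in KO and rose by 1.78 in WT (interaction -6.76, adjusted p = 2.14e-11, limma). Itgb3, which encodes CD61, rose by 1.05 in KO and fell by 0.62 in WT. The milk genes Csn2, Lalba and Wap averaged at most 0.0267 CPM in any group.

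Relatives of the members did not all follow them. In the grainyhead-like family Grhl1, Grhl2 and Grhl3 rose with age in KO by 1.49, 0.57 and 0.75 and in WT by 3.52, 3.29 and 1.59. Ubp1 was called in neither by limma, though edgeR called it higher in WT (0.20, adjusted p = 0.0306). Tfcp2 was called only in KO (-0.26, adjusted p = 0.0108, limma). Of 16 other tested ETS factors 6 rose and 5 fell in KO and 4 rose and 8 fell in WT. Over all genes, 32.9% were called higher with age in KO and 22.3% in WT, so these counts alone do not set the family apart. Ets2 was up by 1.49 in KO and 0.98 in WT, and Etv6 by 0.78 and 1.15. Of 8 other tested Sox genes 4 rose and 2 fell in KO. In WT 2 rose and 3 fell, or 3 and 3 with TMM over all 12 libraries. Sox11 fell in both, by 1.12 in KO and 2.37 in WT, and Sox5 rose in KO (1.38) and fell in WT (-0.69). Cited2 rose in both, by 0.83 and 0.33.

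Around Aldh1a3, 12 genes of retinoic acid synthesis, breakdown and response were tested, and 3 rose and 5 fell with age in KO. In WT 5 rose and 5 fell, or 6 and 3 with TMM over all 12 libraries. At 12 months 2 were higher and 8 lower in KO. Aldh1a1, a related enzyme, rose in KO (1.85, to 123 CPM at 12 months against 33.6 at 2 months) and fell in WT (-0.58, 29.2 against 44.0 CPM). The retinol dehydrogenase gene Rdh10 rose by 0.54 in KO and 2.43 in WT. The receptor gene Rarb and the retinol transporter gene Stra6 fell by 1.78 and 2.14 in KO. Their values in WT were -0.23 and -0.29, both called by limma (adjusted p = 0.016 and 0.0389) and neither by edgeR or DESeq2.

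Around Cd14, 4 of 9 genes of endotoxin sensing rose and 1 fell with age in KO. In WT 2 rose and 5 fell, or 3 and 2 with TMM over all 12 libraries, so no direction is given there. The receptor gene Tlr2 rose in both, by 1.02 in KO and 1.28 in WT. Lbp, whose product carries endotoxin to CD14 and which is also on the list of progenitor and alveolar markers, rose by 1.62 in KO.

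The genes whose profile over the 12 libraries was closest to each member were found by the root-mean-square (RMS) difference of mean-centred log2 values. The closest to Ehf was Sorbs2, an actin-linked adaptor gene, at 0.07 log2, and the sorting receptor gene Sorl1 followed at 0.13. Sorbs2 was also the closest to Elf5 (0.15), and Elf5 and Ehf were 0.15 apart, the smallest difference between any members. Gjb2, a gap junction gene, was nearest to Tfcp2l1 (0.34), the integrin gene Itga3 to Elf3 (0.09, on values that the pseudocount compresses for Elf3) and the myosin gene Myh14 to Cited4 (0.20). The nearest to Sox10 were Eps8l2 (0.19) and the luminal keratin gene Krt18 (0.21). Sox9 was nearest to Cpne8 (0.07) and Btg1 (0.08), Cd14 to Fgfr2 (0.08), and Aldh1a3 to Fam167a (0.11). The nearest to Kit were the aryl hydrocarbon receptor gene Ahr (0.35) and the basal keratin gene Krt5 (0.37).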

How the data were processed

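The authors deposited 1 table of CPM values per gene and library, a signal scaled by TMM in edgeR and made on mm10, per the file headers. TopHat2 2.1.0, Bowtie2 2.2.4, SAMtools 0.1.18 and HTSeq 0.6.1p1 are named in the submitters' processing notes. No source used here names the annotation or strand setting. RNA was isolated with PicoPure and made into stranded total RNA libraries, per the labels' protocols. Whole reads were recovered from the CPM steps: in every library 100% of the nonzero values came out whole to within 0.1.

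The 13961 genes averaging 0.5 CPM or more were tested on log2(CPM + 0.5) by limma 3.58.1 with trend (R 4.3.3), with 1 coefficient per group over the 12 libraries, and called at an adjusted p under 0.05. The values were handled as CPM. The members and lists were chosen with earlier results of these data known. The text names all 10 members, and per list up to 4 genes with the smallest adjusted p in a comparison described, or the defining markers by level, and the genes closest to each member in profile, predicted genes left out. Kitl was added as the ligand of Kit after its values were seen. Alternatives were pseudocounts of 0.1 and 1, no filter and a filter at 2 CPM, TMM over all 12 libraries, edgeR 4.0.16 and DESeq2 1.42.0 on recovered reads, a replicate block and leaving out each library. The fits were tested on simulated data. Deposited starts were taken as counted from 0 (12160 of 21463 matched symbols lie 1 below the RefSeq start) and are given here counted from 1. The values of 1 marker gene are not reported here.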

Additional observations from a re-analysis of the deposited data

Results flagged for a closer look

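The age change of each of the 10 genes differed between the genotypes by the interaction test in limma, given as the change in KO minus that in WT on the log2 scale. It was below 0 for Sox10 (-3.95), Cited4 (-3.88), Tfcp2l1 (-2.70), Ehf (-2.58), Elf5 (-2.18), Elf3 (-2.10), Aldh1a3 (-1.16) and Cd14 (-1.10). It was above 0 for Sox9 (0.84) and Kit (0.72). Over all genes tested, 57.7% had a called interaction, so a call alone does not set these genes apart. For Kit, mast cell markers moved with the age change in KO, where 8 of 10 rose and 1 fell. They moved against it in WT, where 0 rose and 9 fell. Their part in the Kit values was not tested.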

How the results depend on the processing

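Over 20 alternatives, the direction and call of every gene held in all 200 values each for age in WT, genotype at 12 months and the interaction, in 198 of 200 for age in KO and in 183 of 200 for genotype at 2 months. At 2 months the 3 called genes became 1 with TMM over all 12 libraries, 1 with edgeR and 1 to 4 with a library left out, and the count over all genes of 2245 became 1458, 1414 and 1408 to 3028. Replicates 1 and 3 of 2-month KO gave 1408 and 1493 genes when left out, and either of them, or replicate 3 of 2-month WT, left 1 member. Kit was called in all 20. Values that changed sign were not called there: with a library left out, Aldh1a3 with age in KO ranged from -0.2512 to 0.0524 (above 0 without replicate 3 of 12-month KO), and Elf3 between genotypes at 2 months from -0.203 to 0.0104 (above 0 without replicate 2 of 2-month WT). Their cause was not tested. The WT age difference of Elf3 relative to luminal markers was 0.0398 with a pseudocount of 0.1 CPM, an alternative chosen after seeing the data, against -0.56. With a library left out, called members numbered 8 to 9 for age in KO. TMM over all 12 libraries shifted the median of all genes by 0.06, -0.0041, 0.02, 0.09 and -0.07 log2 for age (WT, then KO), genotype (12 months, then 2) and the interaction.

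Same-numbered libraries were not treated as pairs, since no label pairs them and 8 of 18 correlations of their deviations, not all, exceeded 0.1 (-0.16 to 0.59). As a hint from the data, 8 of 12 libraries correlated best with their own number. edgeR on the recovered reads called 7664, 9333, 9772, 1414 and 8120 genes in the same order. A replicate block gave 8453, 9681, 10079, 2590 and 8517 called genes and 10, 8, 10, 3 and 10 called members. Depth limits Elf3 most, with 15 to 36 reads per library at 2 months.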

Other observations

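Ehf and Elf5 are neighbours on chromosome 2 with 108.9 kb between them, and their neighbours were looked up after these values had been seen. No other tested gene lies between them. Cat, the catalase gene just beyond Elf5, had 102 ± 8.39 CPM in 12-month KO and 123 ± 3.25 in 2-month KO, against 150 ± 1.23 in 12-month WT and 138 ± 5.01 in 2-month WT. Its age change was -0.27 in KO (adjusted p = 0.00117, limma) and 0.12 in WT (adjusted p = 0.0983). Pdhx and Apip, on the side of Ehf, fell in both genotypes, by 0.21 and 0.45 in KO and by 0.29 and 0.34 in WT. Abtb2 and Nat10, beyond Cat, were called in neither age comparison, with 0.06 and -0.12 in WT. Among the 7 tested genes within 300 kb of either, a rise with age was called for Ehf and Elf5 only.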
